A study of Mus musculus with 12 samples.

Results

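The comparison described here is that of lung endothelial cells lacking the kinases MLK2 and MLK3 with wild type cells, averaged over 2 oxygen levels, and it used 12 of the 12 libraries of the series. Primary mouse lung endothelial cells (MLECs) from C57BL/6J mice, the wild type, and from Mlk2-/-Mlk3-/- mice, the double knockout, were grown under 21% oxygen, called normoxia, or exposed to 1% oxygen for 90 min, called hypoxia. Each of these 4 groups holds 3 libraries. The difference between double knockout and wild type was taken at each oxygen level, and the average of both differences is called the averaged effect. It stood on 6 double knockout and 6 wild type libraries, and 11378 of 23422 genes, those whose mean over all libraries reached 1 FPKM, were tested. FPKM is the number of fragments scaled to transcript length and to sequencing depth, so levels can be compared between genes. The submitters state that the series was made to find pathways downstream of the MLK family.

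All cells came from the lung and grew in the same medium with 20% serum, endothelial mitogen and heparin. The labels do not say which exons the alleles lack, on which strain the double knockout was kept, how many mice gave the cells, or whether replicate libraries stand for separate cultures, so p-values reflect the spread between libraries alone, which may be technical.

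Mixed lineage kinases are MAP kinase kinase kinases. They bind active Rac and Cdc42, phosphorylate the MAP kinase kinases MKK4 and MKK7 and in that way switch on JNK, which acts on c-Jun and other AP-1 transcription factors, and they can feed into p38 and ERK as well. In endothelium this cascade is known for its part in inflammatory signalling, migration and the response to stress.

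The cells carried endothelial genes in every library. The adhesion molecule Pecam1 was at 548 to 583 FPKM in wild type and 549.7 to 640.2 FPKM in the double knockout, and the lymphatic receptor Lyve1 was at 335 to 408 FPKM in wild type and 235 to 279 FPKM in the double knockout. The surfactant gene Sftpc, Cdh1 of epithelium, and Myh11, Rgs5 and Cspg4 of mural cells were under 0.1 FPKM in all libraries. An estimated 21000000 to 25600000 fragments stood behind each library, and Pearson's r between libraries on the log2 scale was 0.9937 to 0.9955 within groups and 0.9831 to 0.9928 between them. The leading axis of variation (39.1% of the variance) followed oxygen, and the next (20.1%) placed all 6 wild type libraries on one side and all 6 double knockout libraries on the other. Xist was at 13.8 to 19.1 FPKM in all 12 libraries while the Y-linked genes Ddx3y, Kdm5d and Uty were listed at 0 and Eif2s3y was at most at 0.0259 FPKM.

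The targeted genes were compared first. Map3k10, which encodes MLK2 (GRCm38 chromosome 7, 27656375 to 27674598, minus strand), was at 16.6 to 19.2 FPKM in wild type and 0.131 to 1.34 FPKM in the double knockout. The double knockout level differed between oxygen levels, with 0.148 ± 0.0193 FPKM (SD, n = 3) in normoxia and 1.17 ± 0.157 FPKM in hypoxia, against 18.8 ± 0.450 and 17.5 ± 1.43 FPKM in wild type (limma adjusted p of the difference between the effects 0.00375). Over both levels the double knockout mean was 3.64% of the wild type mean (averaged log2 difference -3.60, SE 0.050, limma adjusted p = 6.67e-13). Map3k11, which encodes MLK3 (chromosome 19, 5688742 to 5702865, plus strand), was at 31.9 to 36.4 FPKM in wild type and 10.9 to 12.2 FPKM in the double knockout, so 33.7% of the wild type level remained (averaged log2 difference -1.49, SE 0.034, limma adjusted p = 7.10e-11). With genotype exchanged within each oxygen level, the two-sided exact permutation p was 0.005 for both genes, the smallest that the 400 arrangements allow. Map3k9, which encodes MLK1, was at 0.328 to 0.455 FPKM in all libraries and was below the minimum for the test.

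Over all tested genes the averaged effect was broad and mostly small. Of the 11378 genes, 2167 were called (19%; limma adjusted p under 0.05 over all tested genes), 1011 higher in the double knockout (8.89%) and 1156 lower (10.2%). Which direction held more calls depended on the processing, with 1240 higher and 983 lower at equal library medians, 1193 and 1149 with the trend on GC content and length removed, 1078 and 1055 under quantile normalization, 1057 and 987 with no filter on low values, and 1114 and 1025 without double knockout normoxia library 1. The median size among the called genes was 0.20 on the log2(FPKM + 1) scale for higher and -0.21 for lower genes. Changes past 0.5 were called for 213 genes (1.87%) and past 1 for 30 genes (0.264%), of which 18 were higher and 12 lower. At both oxygen levels, all 3 double knockout libraries lay on the same side of all 3 wild type libraries for 588 of the 1011 higher genes (58.2%) and for 625 of the 1156 lower genes (54.1%), against 5.45% and 5.86% of all tested genes in these directions and 11.3% in either. Calls and separation were taken from the same values, so the larger share among called genes follows from the selection and is no separate support. Genes at 20 FPKM or more were called in 21.6% of cases and those at 1 to 5 FPKM in 17.2%. Of 202 lincRNAs, 13 were higher and 23 lower.

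**Figure D1:**
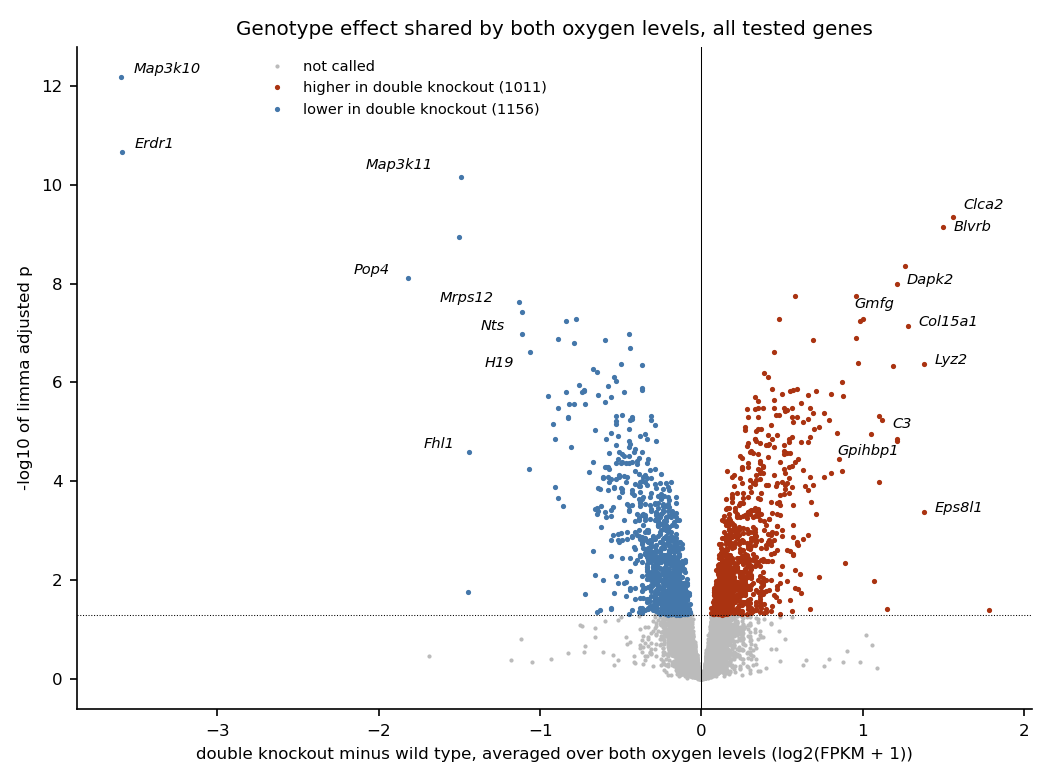
Averaged log2(FPKM + 1) difference, double knockout minus wild type, of each of the 11378 tested genes (horizontal) against -log10 of the limma adjusted p (vertical), with the 1011 higher genes in red, the 1156 lower genes in blue and the threshold of 0.05 as a dotted line. Map3k10 and Erdr1 stand apart on the left at -3.60 and -3.59, and Clca2 and Blvrb have the smallest p among the higher genes.

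Of the leading higher genes, Clca2, a regulator of chloride channels and a known p53 target, measured 17.3, 15 and 14.5 FPKM in the 3 normoxic and 15.4, 16.8 and 15.7 FPKM in the 3 hypoxic wild type libraries. Its double knockout levels were 46.4, 48.7 and 45.2 FPKM with 21% oxygen and 51.5, 49.0 and 49.0 FPKM with 1% oxygen, 3.06 times the wild type mean. Clca2 was the gene with the largest increase of those whose libraries were separated at both levels (averaged log2 difference 1.56, SE 0.042, limma adjusted p = 4.57e-10). That separation was a condition for naming the 15 largest increases and 15 largest decreases, so it is no finding about them.

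Lyz2, the lysozyme of macrophages and neutrophils, measured 22.2, 16.9 and 25.2 FPKM in normoxic and 24.0, 23.8 and 25.7 FPKM in hypoxic wild type libraries. The double knockout libraries gave 59.6, 57.8 and 68.9 FPKM without and 55.4, 62.2 and 61.1 FPKM with hypoxia (averaged log2 difference 1.38, SE 0.081, limma adjusted p = 4.30e-07). The lowest double knockout library was thus above the highest wild type library.

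Complement C3 rose from 1.99 ± 0.429 to 5.96 ± 1.26 FPKM (SD, n = 6) and Lcn2, an iron-sequestering defence protein, from 6.94 ± 1.27 to 17.4 ± 3.35 FPKM. Here and below, an SD with n = 6 spans the libraries of both oxygen levels and so includes any oxygen effect. Marco, a scavenger receptor of macrophages, was at 0.239 to 0.836 FPKM in wild type and 1.61 to 3.40 FPKM in the double knockout. Casp1, the inflammasome protease, was at 0.267 to 0.559 FPKM in wild type and 1.46 to 2.30 FPKM in the double knockout, and Prg2 of eosinophil granules at 0.0780 to 0.781 and 1.97 to 2.58 FPKM. The averaged log2 differences of these 5 genes were 1.21, 1.21, 1.10, 1.10 and 1.12, and limma called all of them. Marco, Casp1 and Prg2 were under 1 FPKM in every wild type library and reached the minimum for the test only through the double knockout.

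The other leading higher genes had diverse roles. Col15a1, a collagen of the endothelial basement membrane zone, rose from 2.04 ± 0.212 to 6.41 ± 1.04 FPKM (SD, n = 6, averaged log2 difference 1.28). Dapk2, a calmodulin-regulated death-associated kinase, measured 18.3, 18.4 and 19.6 FPKM in the 3 normoxic wild type libraries and 40.2, 43.1 and 44.1 FPKM in the 3 normoxic double knockout libraries. With 1% oxygen the wild type values were 10.1, 9.91 and 12.0 FPKM and the double knockout values 27.3, 26.3 and 28.4 FPKM, so it was lower in hypoxia in both genotypes and separated them at each level (averaged log2 difference 1.21). Gpihbp1, which carries lipoprotein lipase to the capillary lumen, rose from 7.39 ± 1.84 to 16.2 ± 2.73 FPKM (1.05), and the secreted protein gene Msmp from 4.53 ± 0.578 to 11.6 ± 1.01 FPKM (1.19). Blvrb (1.5), Eps8l1 (1.38) and Gmfg (1.00), the remaining genes of the 15 largest increases, lie on chromosome 7 and are described with it.

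**Figure D2:**
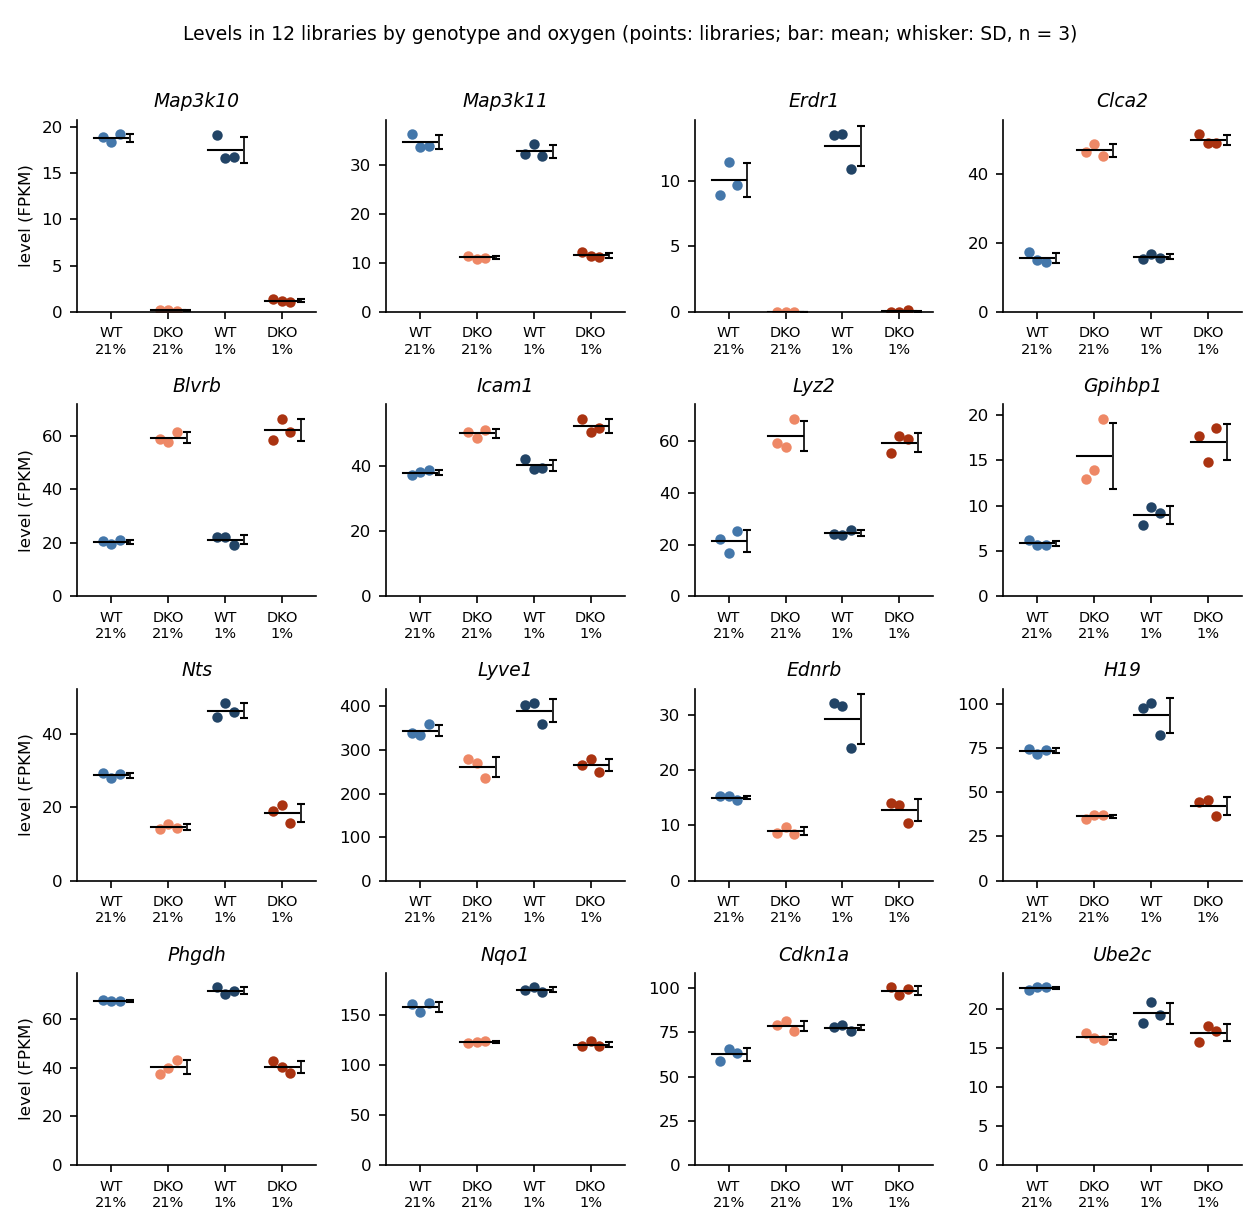
Level (FPKM, vertical, from 0) of 16 genes in every library, by genotype (WT, wild type; DKO, double knockout) and oxygen level, with the mean as a bar and the SD over 3 libraries as a whisker. The double knockout points lie apart from the wild type points at both oxygen levels in every panel, as for Clca2 at 45.2 to 51.5 against 14.5 to 17.3 FPKM. For genes among the 15 largest increases or decreases this separation was a condition of being named.

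Among lower genes, Erdr1, an erythroid differentiation regulator that lies in the pseudoautosomal region of the sex chromosomes, stood beside Map3k10. It measured 8.96, 11.5 and 9.72 FPKM in normoxic and 13.5, 13.6 and 10.9 FPKM in hypoxic wild type libraries, was listed at 0 in 5 of the double knockout libraries, and was at 0.104 FPKM in the remaining library, from hypoxia. Its fitted difference of -3.59 (limma adjusted p = 2.18e-11) depends on the pseudocount of 1 and gives no bound on the fold.

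Nts, which encodes neurotensin and is a known marker of lymphatic endothelium, measured 29.3, 28.0 and 29.2 FPKM in the 3 normoxic wild type libraries and 14.1, 15.6 and 14.3 FPKM in the 3 normoxic double knockout libraries. Hypoxic libraries gave 44.7, 48.6 and 46.1 FPKM without and 19, 20.8 and 15.8 FPKM with the knockout. Hypoxia libraries were higher in each genotype, and every double knockout library was below every wild type library (averaged log2 difference -1.11, SE 0.056, limma adjusted p = 1.06e-07). H19, a maternally expressed imprinted RNA, measured 74.5, 71.7 and 74.1 FPKM in the 3 normoxic wild type libraries and 35.0, 36.9 and 36.9 FPKM in their double knockout counterparts. The hypoxic wild type libraries measured 97.8, 100.5 and 82.2 FPKM and the hypoxic double knockout libraries 44.3, 45.7 and 36.5 FPKM (averaged log2 difference -1.06).

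Fhl1, a LIM domain protein of muscle and endothelium, fell from 23.9 ± 6.25 to 8.11 ± 1.70 FPKM (SD, n = 6, -1.44), and Fmr1nb from 1.73 ± 0.25 to 0.316 ± 0.283 FPKM (-1.07). Fmr1nb and Erdr1 were under 1 FPKM in every double knockout library and reached the minimum for the test only through wild type. Hey1, a Notch target, was at 1.24 to 1.56 FPKM in wild type normoxia and 0.719 to 0.978 FPKM in double knockout normoxia. After hypoxia Hey1 measured 4.94, 6.00 and 3.23 FPKM in wild type and 1.04, 1.33 and 0.843 FPKM in the double knockout (averaged log2 difference -0.91). Its wild type hypoxia libraries stood above all others, and the test of the difference between oxygen levels missed the threshold (limma adjusted p = 0.0780). Efcab7 spread widely, at 1.91 to 15.5 FPKM in wild type and 0.150 to 2.48 FPKM in the double knockout, so that the genotypes overlapped when oxygen was set aside (-1.45, SE 0.37, limma adjusted p = 0.0170). Pop4, Mrps12, Zfp93, Fbxo17 and Rassf10 among the 15 largest decreases lie on chromosome 7.

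Because the cascade ends on AP-1, the promoters of the 30 leading genes, 15 higher and 15 lower, were searched for its binding motif TGANTCA, which reads the same way on both strands. Map3k10 and Map3k11, the targeted genes, are among the 15 lower ones, so a motif at Map3k10 cannot tell of an effect downstream of the kinases. RefSeq windows (GRCm38.p6, 250 bases before to 50 after the start) were matched for 22 of the 30 genes. The motif stood before the start in the windows of Map3k10 and Nts, whose 250 bases before the start are shown 5′ to 3′ with the motif in capitals, at chr7:27674582-27674831 and chr10:102490419-102490668, both on the minus strand.
Map3k10: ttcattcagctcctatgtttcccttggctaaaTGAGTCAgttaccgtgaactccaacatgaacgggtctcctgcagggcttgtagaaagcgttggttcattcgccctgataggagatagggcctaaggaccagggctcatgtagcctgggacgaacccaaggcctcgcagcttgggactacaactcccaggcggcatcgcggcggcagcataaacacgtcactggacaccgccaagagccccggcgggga
Nts: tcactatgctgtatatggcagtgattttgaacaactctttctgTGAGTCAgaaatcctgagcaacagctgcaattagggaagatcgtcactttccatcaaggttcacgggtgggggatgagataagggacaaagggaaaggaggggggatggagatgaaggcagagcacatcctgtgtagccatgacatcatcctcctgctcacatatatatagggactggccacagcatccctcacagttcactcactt

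The capitals begin 218 bases before the start of Map3k10 and 207 bases before that of Nts. Over all RefSeq windows 7.81% held the motif, and over those of tested genes 4.92%. The share was 6.51% of 967 windows of genes called higher, 5.80% of 1138 windows of genes called lower and 4.63% of 8776 windows of tested genes not called. The CRE motif TGACGTCA, bound by ATF and CREB factors, stood in 1.65%, 2.81% and 3.30% of these windows, and among the leading genes in the window of Pop4. These shares describe letters in short windows and say nothing of binding.

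Of 33 measured genes of the JNK, p38 and ERK cascades, 7 were higher, 3 lower and 23 not called (30.3% called), with a median of 0.00 beside -0.01 over all genes. The counts of this and the later lists stand beside 8.89% higher and 10.2% lower over all tested genes. Rps6ka3, which encodes the ERK-activated kinase RSK2, fell from 82 ± 4.55 to 68.4 ± 3.82 FPKM (SD, n = 6, averaged log2 difference -0.26). Map4k4, a kinase upstream of JNK, rose by 0.13, the p38 substrate kinase gene Mapkapk2 by 0.12 and Rps6ka1 by 0.22 on the log2 scale. Without wild type normoxia library 1, wild type hypoxia library 2, double knockout normoxia library 2 or double knockout hypoxia library 1 only 6 members were called, and 5 without double knockout hypoxia library 2.

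Feedback inhibitors of MAP kinases leaned lower, with 7 of 17 lower and 1 higher (47.1% called, median -0.05), against 10.2% lower and 8.89% higher over all tested genes. Dusp4, a nuclear phosphatase of ERK and JNK, was at 12.2 to 14.1 FPKM in wild type and 10.4 to 11.1 FPKM in the double knockout (-0.25, limma adjusted p = 0.000185), and Spry2, a Sprouty inhibitor of receptor signalling, fell by 0.24. Dusp2 rose from 13.1 ± 1.18 to 15.9 ± 1.12 FPKM (SD, n = 6, 0.27). Of 19 AP-1 and immediate early genes, 3 were higher and 3 lower. Ier5 rose from 54.3 ± 2.14 to 67.0 ± 4.04 FPKM (0.30) and Batf, an AP-1 partner of immune cells, from 2.31 ± 0.452 to 3.85 ± 0.662 FPKM (0.55). Ier3, an early response gene, rose by 0.30, and Maff, a small Maf factor, fell by 0.23. In the fit with oxygen and genotype as separate terms, 1 of 17 inhibitors was higher and 4 lower.

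**Figure D3:**
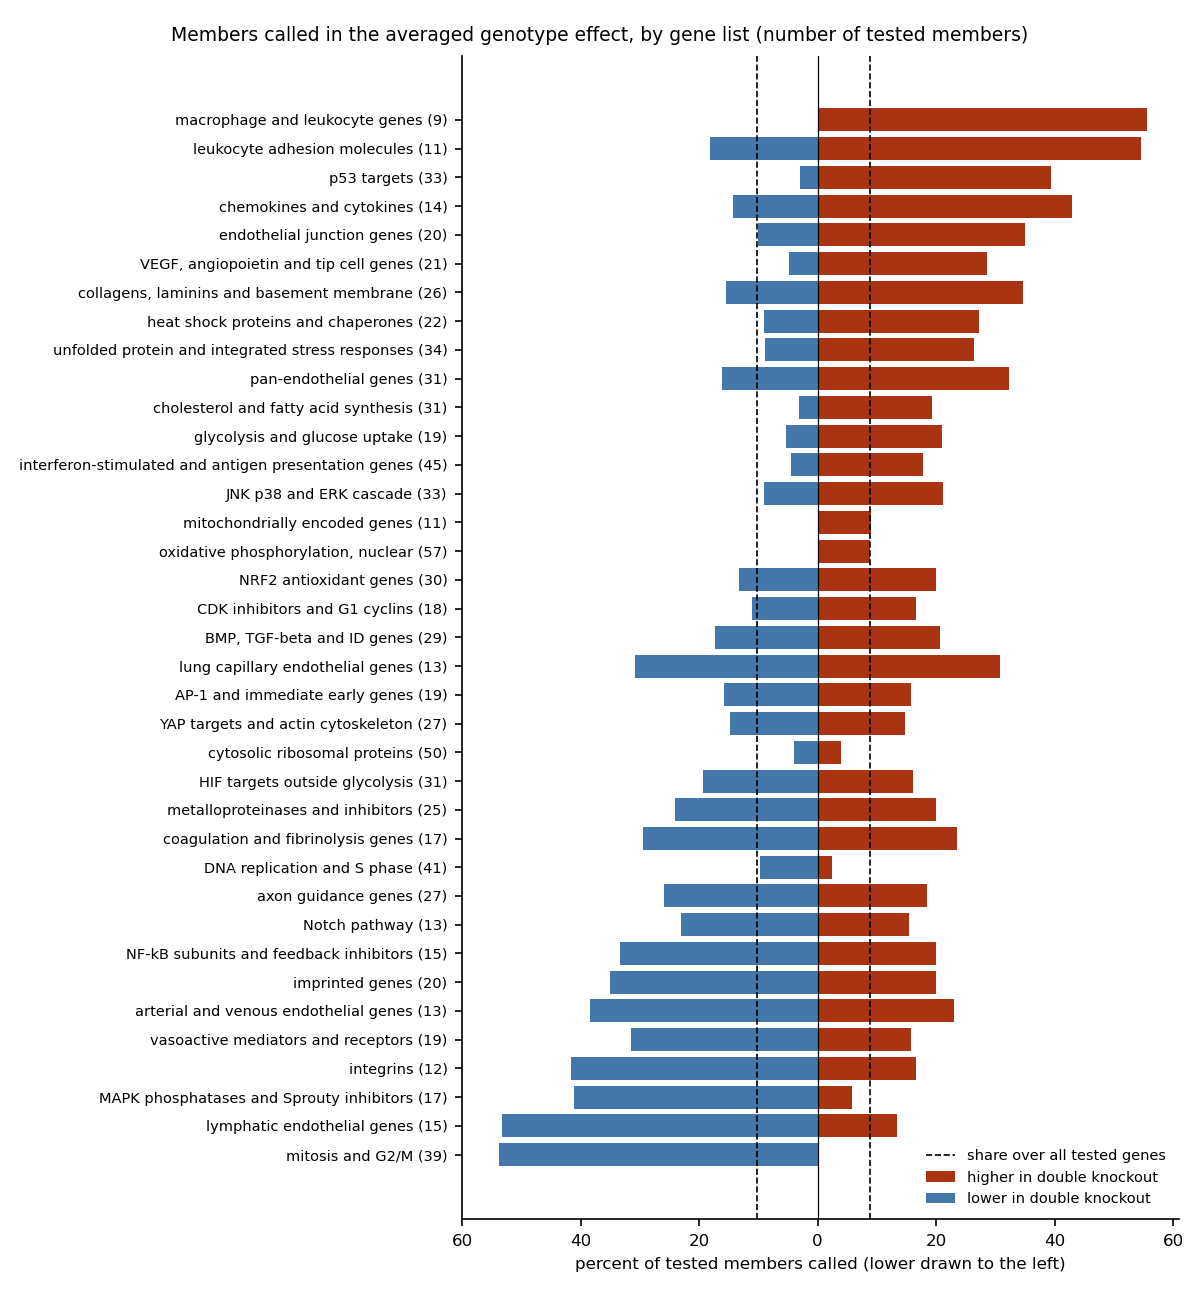
Percent of tested members of gene lists with at least 9 tested genes that were called higher (red, to the right) or lower (blue, to the left) in the averaged effect, with the number of tested members in brackets and dashed lines at the shares over all tested genes, 8.89% and 10.2%. Mitosis and lymphatic genes reach farthest to the left, macrophage and adhesion genes farthest to the right, and the lists at the ends hold 39, 15, 9 and 11 tested genes.

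Lymphatic genes were mostly lower. Of 15 tested members 8 were lower, 2 higher and 5 not called, and the median was -0.24. Besides Nts, Lyve1, the hyaluronan receptor, measured 339, 335 and 359 FPKM in normoxic wild type and 279, 269 and 235 FPKM in normoxic double knockout libraries, and 404, 408 and 359 against 266, 279 and 250.3 FPKM after hypoxia. No double knockout library reached a wild type library (averaged log2 difference -0.48, SE 0.049, limma adjusted p = 3.14e-05). Fgl2, a fibrinogen-like prothrombinase, fell from 15 ± 2.72 to 7.98 ± 0.732 FPKM (SD, n = 6, -0.82) and the guidance ligand Sema3d from 5.14 ± 0.982 to 2.49 ± 0.745 FPKM (-0.83). Prox1, the master regulator of lymphatic fate, was called lower at 18.5 to 28.7 against 22.5 to 39.4 FPKM. Podoplanin (Pdpn) was called higher at 55.5 to 61.5 against 48.7 to 60.0 FPKM, and Flt4, the lymphatic VEGF receptor, was not called. The summed level of Prox1, Lyve1, Pdpn and Flt4 was 482 to 593 FPKM in wild type and 372 to 445 FPKM in the double knockout. In bulk libraries, fewer lymphatic cells and less RNA per cell cannot be told apart.

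Pan-endothelial genes leaned the other way, with 10 of 31 higher and 5 lower (median 0.05). Esam, a junctional adhesion molecule, was at 103 to 110.4 FPKM in wild type and 130.0 to 142 FPKM in the double knockout (0.33, limma adjusted p = 1.96e-06). Cd93, a receptor of angiogenic endothelium, was at 177 to 208 and 243 to 252 FPKM (0.35), and the transcription factor Fli1 at 88.7 to 96.2 and 103 to 119 FPKM (0.25). The genotypes did not overlap for any of them. Clec14a rose by 0.30. The summed level of the 8 defining markers was alike, 2864 to 3116 FPKM in wild type and 2933 to 3096 FPKM in the double knockout.

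Subtype genes of blood vessels split. Of 13 lung capillary genes 4 were higher and 4 lower. Next to Gpihbp1, Rgcc, a cell cycle regulator, rose from 2.58 ± 0.65 to 4.79 ± 0.574 FPKM (SD, n = 6, 0.71). Ednrb, the endothelin B receptor, measured 15.2, 15.2 and 14.6 FPKM in the 3 normoxic wild type libraries and 8.69, 9.74 and 8.51 FPKM in the 3 normoxic double knockout libraries. With 1% oxygen the wild type values were 32.1, 31.5 and 23.9 FPKM and the double knockout values 14.1, 13.7 and 10.4 FPKM, where all 3 libraries remained under the wild type normoxia values (averaged log2 difference -0.91, SE 0.083, limma adjusted p = 1.39e-05). The fatty acid binding protein gene Fabp5 fell by 0.27. Of 13 arterial and venous genes 3 were higher and 5 lower. Cxcr4, the chemokine receptor of tip and arterial cells, rose from 178 ± 17.2 to 246 ± 42.4 FPKM (0.45), while Bmx, an arterial kinase, fell from 1.77 ± 0.305 to 1.16 ± 0.183 FPKM (-0.35) and the venous receptor Ephb4 fell by 0.20.

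Of 13 Notch pathway genes 2 were higher and 3 lower. Mfng, a Fringe glycosyltransferase that tunes Notch, was at 14.3 to 17.3 FPKM in wild type and 21.4 to 25 FPKM in the double knockout (0.52, limma adjusted p = 3.88e-06), Notch4 rose by 0.26 and Notch2 fell by 0.33. VEGF, angiopoietin and tip cell genes had 6 of 21 higher and 1 lower, with 4 higher and none lower without double knockout hypoxia library 1 or library 2. Pgf, a ligand of VEGF receptor 1, rose by 0.27, Esm1, a tip cell proteoglycan, by 0.29 and the coreceptor gene Nrp1 by 0.19. BMP and TGF-beta genes had 6 of 29 higher and 5 lower. Inhba, the activin A subunit, rose from 5.42 ± 0.492 to 7.81 ± 0.529 FPKM (SD, n = 6, 0.46) and Smad1 by 0.15. Tgfb3 fell by 0.26.

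Vasoactive genes had 3 of 19 higher and 6 lower (median -0.07). Besides Ednrb, the adrenomedullin coreceptor gene Ramp3 was at 7.24 to 9.85 FPKM in wild type and 4.88 to 6.19 FPKM in the double knockout (-0.57, limma adjusted p = 2.71e-05). Gucy1b3, a subunit of the nitric oxide receptor guanylate cyclase, was at 1.18 to 2.23 and 0.529 to 0.947 FPKM (-0.59). Gucy1b3 was under 1 FPKM in every double knockout library and reached the minimum for the test only through wild type. Kcnj2, an inward rectifier potassium channel, rose and is described with the oxygen levels. Junction genes had 7 of 20 higher and 2 lower. N-cadherin (Cdh2) fell from 4.29 ± 0.702 to 2.32 ± 0.30 FPKM (SD, n = 6, -0.67), and claudin 5 (Cldn5) fell by 0.32, with overlap between genotypes.

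Leukocyte adhesion molecules were called in 8 of 11 cases, 6 higher and 2 lower (median 0.09). Icam1, which binds leukocyte integrins, measured 37.2, 38.1 and 38.9 FPKM in the 3 normoxic wild type libraries and 50.4, 48.7 and 51.3 FPKM in the 3 normoxic double knockout libraries. Hypoxic libraries gave 42.1, 39.3 and 39.4 FPKM without and 54.7, 50.6 and 51.8 FPKM with the knockout (averaged log2 difference 0.38, SE 0.029, limma adjusted p = 3.30e-06). The groups did not overlap, and the effect was 0.39 in normoxia and 0.37 in hypoxia. Cd34, a sialomucin, rose from 252 ± 6.50 to 307 ± 5.80 FPKM (SD, n = 6, 0.28) and Mcam from 7.92 ± 0.560 to 12.1 ± 1.70 FPKM (0.54), while the sialomucin Podxl fell by 0.26.

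Of 14 tested chemokines and cytokines 6 were higher and 2 lower (median 0.12), and at a mean of at least 5 FPKM 1 was higher and 1 lower. Ccl6 was at 1.62 to 2.33 FPKM in wild type and 4.47 to 4.98 FPKM in the double knockout (0.98, limma adjusted p = 5.75e-08). The monocyte attractant Ccl7 was at 32.0 to 38 and 38.6 to 60.4 FPKM (0.51), the granulocyte factor gene Csf3 at 2.72 to 3.62 and 4.42 to 6.42 FPKM (0.52), and Cxcl16 rose by 0.34. NF-kB subunits and feedback inhibitors had 3 of 15 higher and 5 lower, and 3 higher and 2 lower with chromosomes 7 and 19 left out. The lower genes Rela, on chromosome 19, and Relb and Nfkbib, on chromosome 7, lie on the chromosomes of the targeted genes. The inhibitor gene Nfkbia rose by 0.14 and Tnip1 by 0.18, and the adaptor gene Traf1 fell from 6.75 ± 0.529 to 5.09 ± 0.394 FPKM (SD, n = 6, -0.35). Nfkbib, which lies 1.08 Mb from Map3k10, fell by 0.28.

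Of 45 interferon and antigen presentation genes 8 were higher, 2 lower and 35 not called (median 0.04). The share called, 22.2%, was near that over all tested genes. H2-Q7 and H2-Q6, class I genes with near-identical relatives among which reads can be split, rose by 0.70 and 0.85. H2-K1 was at 357 to 389 FPKM in wild type and 395 to 421 FPKM in the double knockout (0.15), and Oas1a, an RNA sensor, fell from 10.9 ± 1.64 to 6.53 ± 1.36 FPKM (SD, n = 6, -0.67).

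Some genes of macrophages and leukocytes were higher in the same libraries. Of 27 such genes 9 reached the mean of 1 FPKM over all libraries and 5 of these were called, all higher (limma). A gene such as Marco reached that mean only through the double knockout, which favours higher calls, and at a mean of at least 5 FPKM 2 were called. Besides Lyz2 and Marco, the protease gene Ctss rose from 1.47 ± 0.275 to 3.39 ± 0.286 FPKM (SD, n = 6, 0.84) and Cd14, the endotoxin coreceptor gene, from 21.0 ± 1.60 to 24.7 ± 1.44 FPKM (0.22). The summed level of 6 defining markers was 20.3 to 28.9 FPKM in wild type and 59.7 to 73.1 FPKM in the double knockout, most of it Lyz2. Of these markers Adgre1, C1qa and Csf1r were under 1 FPKM in all libraries, at 0.168 to 0.290, 0.0563 to 0.426 and 0.143 to 0.346 FPKM in the double knockout. In wild type Adgre1 was at 0.0715 to 0.149 FPKM, below every double knockout library, while the genotypes overlapped for C1qa and Csf1r. All 3 were below the minimum for the test. Ptprc, the pan-leukocyte antigen CD45, was at 0.0820 to 0.312 FPKM in wild type and 0.287 to 1.28 FPKM in the double knockout, and Cd68 was not called. The part of leukocyte RNA in the higher defence, chemokine and adhesion genes was not tested.

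Other cell types were at low levels. Dcn, a fibroblast proteoglycan, was at 1.16 to 1.65 FPKM in wild type and 2.73 to 3.20 FPKM in the double knockout (0.73), and the 6 fibroblast markers summed to 1.97 to 3.24 and 4.38 to 6.41 FPKM, with Lum under 0.1 FPKM. All 5 tested genes of smooth muscle and pericytes were called. Acta2, on chromosome 19 with Map3k11, rose from 2.94 ± 0.716 to 5.27 ± 0.662 FPKM (SD, n = 6, 0.68). The potassium channel genes Kcnj8 and Abcc9 rose by 0.54 and 0.32, and Tagln fell from 32.2 ± 6.37 to 22.8 ± 2.55 FPKM (-0.46). The 6 mural markers summed to 27.7 to 45.6 FPKM in wild type and 25.5 to 32.8 FPKM in the double knockout. Krt19 of epithelium and mesothelium fell by 0.64, and the 6 epithelial markers summed to 27.5 to 32.5 and 27.1 to 33.3 FPKM, most of it Krt18.

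Of 39 mitosis genes 21 were lower and none higher (limma; median -0.14). Ube2c, the ubiquitin-conjugating enzyme of the anaphase-promoting complex, measured 22.5, 22.8 and 22.8 FPKM in normoxic wild type and 16.9, 16.3 and 16.1 FPKM in normoxic double knockout libraries, and 18.2, 20.9 and 19.3 against 15.8, 17.9 and 17.2 FPKM after hypoxia. The groups were separated at each level (averaged log2 difference -0.31, SE 0.040, limma adjusted p = 0.000174). The mitotic kinase gene Aurkb fell by 0.25 and the spindle genes Prc1 and Nusap1 fell by 0.22 each. The list's median was -0.27 in normoxia, where 22 members were lower against 4.32% of all genes, and -0.01 in hypoxia, where 2 were lower against 8.42%. No member passed the test of the difference between oxygen levels. The count of 21 was 9 in the fit with separate genotype and oxygen terms and 12 with no filter on low values. It was 13 without wild type normoxia library 2, 11 without wild type normoxia library 3, 11 without wild type hypoxia library 3 and 13 without double knockout hypoxia library 2.

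Of 41 S phase genes 1 was higher and 4 lower (12.2% called, below the share over all tested genes). Pold1, a DNA polymerase subunit encoded on chromosome 7, fell from 8.29 ± 1.34 to 5.48 ± 0.292 FPKM (SD, n = 6, -0.51), and the maintenance methyltransferase gene Dnmt1 fell by 0.23. Of 33 p53 targets 13 were higher, 1 lower and 19 not called (median 0.04). Cdkn1a, the CDK inhibitor p21, measured 58.7, 65.4 and 63.3 FPKM in the 3 normoxic wild type libraries and 78.9, 81.5 and 75.6 FPKM in the 3 normoxic double knockout libraries. The hypoxic wild type libraries measured 77.9, 79.1 and 75.9 FPKM and the hypoxic double knockout libraries 100.4, 95.9 and 99.3 FPKM (averaged log2 difference 0.33, SE 0.031, limma adjusted p = 1.39e-05). The genotypes were apart by a like amount at each level, 0.33 and 0.34. Pmaip1, the BH3-only protein NOXA, rose from 8.31 ± 0.684 to 13.3 ± 1.30 FPKM (0.62) and the receptor gene Eda2r by 0.25.

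Of 18 CDK inhibitors and G1 cyclins 3 were higher and 2 lower. Cdkn2a, which encodes p16 and p19ARF, was at 178 to 212 FPKM in wild type and 223 to 266 FPKM in the double knockout (0.32, limma adjusted p = 0.000527), and its neighbour Cdkn2b rose by 0.19. Cyclin D1 (Ccnd1) fell by 0.11, with overlapping genotypes.

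Matrix genes moved both ways. Of 26 collagen, laminin and basement membrane genes 9 were higher and 4 lower, and at a mean of at least 5 FPKM 2 were higher and 3 lower. Besides Col15a1, the matricellular gene Sparcl1 rose from 1.99 ± 0.278 to 4.05 ± 0.385 FPKM (SD, n = 6, 0.76). Fbn1, the microfibril protein fibrillin, fell from 5.66 ± 0.645 to 3.43 ± 0.604 FPKM (-0.59) and the transmembrane collagen gene Col13a1 by 0.35. Of 12 integrins 5 were lower and 2 higher. Itga9, an integrin of lymphatic valves, was at 8.25 to 12.2 FPKM in wild type and 5.29 to 7.62 FPKM in the double knockout (-0.60), Itgb4 at 5.68 to 6.80 and 3.27 to 4.67 FPKM (-0.57), and Itga6 and Itga8 fell by 0.20 and 0.22. Itgb4 and Itga6 encode the partners of the laminin receptor of hemidesmosomes.

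Metalloproteinases and inhibitors had 5 of 25 higher and 6 lower. The inhibitor gene Timp3 fell from 104 ± 15.8 to 74.8 ± 13.7 FPKM (SD, n = 6, -0.48) and Timp2 by 0.21, Adam8 fell by 0.53, and the aggrecanase family gene Adamts7 rose by 0.41. Coagulation and fibrinolysis genes had 4 of 17 higher and 5 lower. The protease inhibitors Serpine2 and Tfpi2 rose by 0.29 and 0.33, and Anxa2, a plasminogen coreceptor, fell by 0.15. Plaur, the urokinase receptor gene 3.18 Mb from Map3k10, fell by 0.16, with -0.28 in normoxia and -0.04 in hypoxia.

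Actin and YAP target genes had 4 of 27 higher and 4 lower. Besides Acta2, tropomyosin 2 (Tpm2) rose by 0.30 and Ctgf by 0.22, while Ankrd1 fell from 17.3 ± 3.49 to 11.9 ± 2.85 FPKM (SD, n = 6, -0.51). Acta2 and Ankrd1, with the largest change in each direction here, lie on chromosome 19, 28.6 and 30.4 Mb from Map3k11. Axon guidance genes had 5 of 27 higher and 7 lower. Sema3a, a repellent ligand, fell from 86.5 ± 12.1 to 62.7 ± 10.0 FPKM (-0.46), Ntn1 from 3.18 ± 0.840 to 1.67 ± 0.154 FPKM (-0.62), and Sema7a rose by 0.36.

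Among stress and metabolic genes, Phgdh and Nqo1 separated the genotypes by the smallest p. Phgdh, the entry enzyme of serine synthesis, measured 67.9, 67.5 and 67.4 FPKM in the 3 normoxic wild type libraries and 37.6, 40.1 and 43.2 FPKM in the 3 normoxic double knockout libraries. With 1% oxygen the wild type values were 73.2, 70.6 and 71.7 FPKM and the double knockout values 42.7, 40.4 and 38.1 FPKM (averaged log2 difference -0.78, SE 0.036, limma adjusted p = 5.14e-08). The lowest wild type library, at 67.4 FPKM, was above the highest double knockout library, at 43.2 FPKM. With Phgdh, Trib3 and Chac1 fell by 0.24 and 0.39. They were the 3 lower genes of 34 in the unfolded protein and integrated stress responses. There 9 were higher, among them Sesn2, Atf5 and the chaperone Hspa5 (0.14).

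Nqo1, a quinone reductase driven by NRF2, measured 161, 153 and 162 FPKM in the 3 normoxic wild type libraries and 122, 123 and 124 FPKM in the 3 normoxic double knockout libraries. Hypoxic libraries gave 175, 178 and 173 FPKM without and 119, 124 and 119 FPKM with the knockout (averaged log2 difference -0.45, SE 0.023, limma adjusted p = 1.06e-07). The genotypes did not overlap. Of 30 NRF2 antioxidant genes 6 were higher and 4 lower, with the glutathione transferase genes Gstm2 and Gstm1 in opposite directions (0.34 and -0.24) and the pentose phosphate gene Pgd higher by 0.26. Gstm1 and Gstm2 are close relatives, so shared reads can be split between them.

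Of 22 heat shock genes 6 were higher and 2 lower, and 5 were called without wild type hypoxia library 2, double knockout normoxia library 2, double knockout hypoxia library 1 or double knockout hypoxia library 3. Hspa1a, the inducible HSP70, rose from 8.45 ± 2.98 to 12.7 ± 5.47 FPKM (SD, n = 6, 0.49), Hspa8 by 0.15 and Serpinh1 by 0.11, and Hspb8 fell by 0.25. Of 31 HIF targets outside glycolysis 5 were higher and 6 lower, with 7 called in all without wild type normoxia library 2, wild type hypoxia library 2 or double knockout normoxia library 3. The circadian repressor gene Bhlhe40 fell by 0.56 and the mTORC1 inhibitor gene Ddit4 rose by 0.22. Of 19 glycolysis genes 4 were higher and 1 lower (26.3% called). Hk2, the inducible hexokinase, was at 4.20 to 5.07 FPKM in wild type normoxia and 2.98 to 3.36 FPKM in double knockout normoxia, and at 16.9 to 21.9 and 9.28 to 11.2 FPKM in hypoxia (-0.61). Pkm, Slc16a1 and Pdk1 rose by 0.16, 0.18 and 0.18.

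Of 31 sterol and fatty acid synthesis genes 6 were higher and 1 lower (22.6% called, near the share over all tested genes). Scd1, Fads1 and Scd2 among them lie on chromosome 19, and with chromosomes 7 and 19 left out 4 were higher and none lower (limma). Insig1, which holds SREBP in the endoplasmic reticulum, rose from 54.0 ± 2.82 to 66.1 ± 4.24 FPKM (SD, n = 6, 0.29), and Scd1 and Stard4 by 0.30 and 0.19. Of 50 ribosomal protein genes 2 were higher and 2 lower (8.00% called). Of 57 nuclear genes of oxidative phosphorylation 5 were higher (8.77% called) and none lower (limma). These counts depended on the scaling and on single libraries. With the trend on GC content and length removed, 11 ribosomal genes were higher and 2 lower and 12 oxidative phosphorylation genes were higher, and without double knockout normoxia library 1 the ribosomal counts were 14 and 2. Oxidative phosphorylation genes were called in 11 cases without double knockout normoxia library 1 and in 8 without wild type hypoxia library 3. Calls numbered 3 without double knockout normoxia library 2 or double knockout hypoxia library 2 or 3, and 2 without double knockout normoxia library 3 or double knockout hypoxia library 1. It was 1 without wild type normoxia library 1 or 2 or wild type hypoxia library 2. Of the 11 tested mitochondrially encoded genes mt-Nd4l was called, and it was listed at 0 in all 3 wild type normoxia libraries.

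Genes on chromosome 7, which carries Map3k10, were called more often than those elsewhere. Of 821 tested genes on it, 215 were called (26.2%), and 40 were called past 0.5 (4.87%) and 9 past 1. On chromosomes other than 7 and 19, 18.4% of 10035 genes were called and 1.59% past 0.5. The share on chromosome 7 was 36.0% of 136 genes within 5 Mb of Map3k10, 32.6% of 172 genes at 5 to 20 Mb, 31.0% of 100 genes at 20 to 50 Mb and 18.9% of 412 genes farther away. Past 0.5 it was 9.56%, 6.40%, 8.00% and 1.70%. Higher and lower genes were both found there, 19 and 30 within 5 Mb.

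Blvrb, which encodes biliverdin reductase B and lies 0.190 Mb from Map3k10, measured 20.8, 19.6 and 21.0 FPKM in the 3 normoxic wild type libraries and 58.7, 57.8 and 61.6 FPKM in the 3 normoxic double knockout libraries. The hypoxic wild type libraries measured 22.1, 22 and 19.1 FPKM and the hypoxic double knockout libraries 58.4, 66.5 and 61.3 FPKM (averaged log2 difference 1.5, SE 0.043, limma adjusted p = 7.29e-10). Gmfg, glia maturation factor gamma, at 0.763 Mb, rose from 170.4 ± 7.89 to 343 ± 26.7 FPKM (SD, n = 6, 1.00). Both were raised by a like amount at each oxygen level, 1.49 and 1.52 for Blvrb and 0.99 and 1.01 for Gmfg.

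Mrps12, a mitochondrial ribosomal protein gene at 1.07 Mb, fell from 36.8 ± 3.88 to 16.5 ± 3.27 FPKM (SD, n = 6, -1.13), the F-box gene Fbxo17 at 1.04 Mb from 3.26 ± 0.808 to 1.20 ± 0.418 FPKM (-0.95) and the zinc finger gene Zfp93 at 3.38 Mb from 5.07 ± 1.02 to 1.86 ± 0.772 FPKM (-1.11). Pop4, a subunit of RNase P at 10.6 Mb, measured 17.5, 15.9 and 15.9 FPKM in the 3 normoxic wild type libraries and 3.46, 4.73 and 4.80 FPKM in the 3 normoxic double knockout libraries. With 1% oxygen the wild type values were 15, 14.4 and 15.7 FPKM and the double knockout values 3.37, 3.46 and 2.91 FPKM (averaged log2 difference -1.82, limma adjusted p = 7.84e-09). Separated libraries at each oxygen level were a condition for naming these genes.

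Farther along the chromosome, Eps8l1 at 23.2 Mb rose from 3.16 ± 1.34 to 9.62 ± 2.20 FPKM (SD, n = 6, 1.38) and Rassf10 at 85.3 Mb fell from 4.25 ± 1.40 to 1.72 ± 0.412 FPKM (-0.92). Of 20 imprinted genes 4 were higher and 7 lower, and 3 of those named lie on chromosome 7. Peg3, at 20.9 Mb, fell from 4.87 ± 0.528 to 2.40 ± 0.220 FPKM (-0.79), Ndn, at 34.7 Mb, rose from 71.3 ± 3.22 to 101 ± 3.75 FPKM (0.50), and H19 lies at 115 Mb. With chromosomes 7 and 19 left out of the fit, 6 of the remaining imprinted genes were called, 2 higher and 4 lower.

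Around Map3k11 on chromosome 19 the pattern was different in numbers: 14.0% of 172 genes within 5 Mb were called, with none past 0.5 (limma), against 27.8% of 158 genes at 20 to 50 Mb. With both chromosomes left out of the fit, 1850 genes were called. For genes near Map3k10, an effect of the missing kinases and one of the chromosome that carries the targeted allele cannot be told apart, since each double knockout library carries both.

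**Figure D4:**
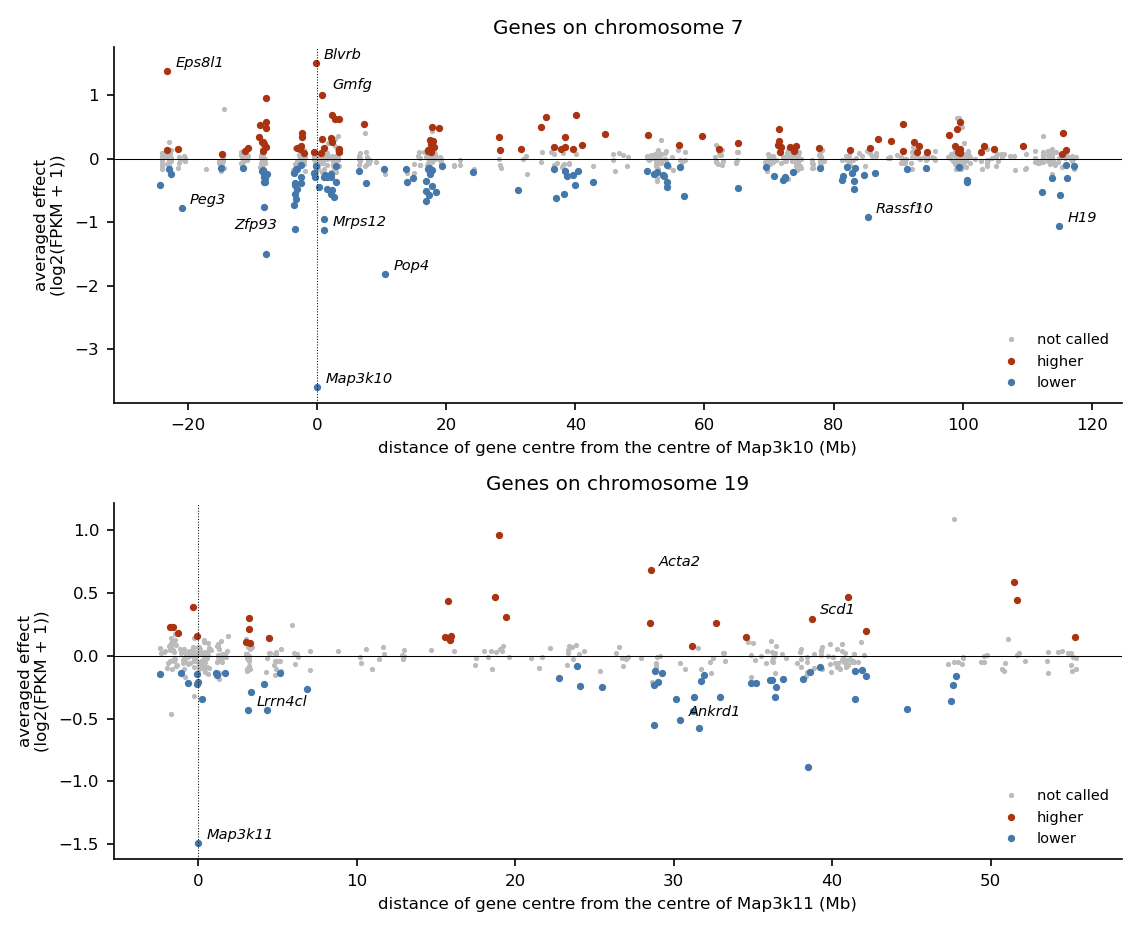
Averaged log2(FPKM + 1) difference (vertical) of tested genes on chromosome 7 (upper panel) and chromosome 19 (lower panel) against the distance in Mb of the gene's centre from the centre of Map3k10 or Map3k11, with called genes in colour. Large differences in both directions gather within 50 Mb of Map3k10, where Blvrb and Gmfg lie above and Pop4 and Mrps12 below, while within 5 Mb of Map3k11 only that gene itself stands out.

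The 2 oxygen levels were then compared. In normoxia 929 genes were called (8.16%; limma), 3.84% higher and 4.32% lower. In hypoxia 1832 were called (16.1%), 7.68% higher and 8.42% lower, and 538 were called at both levels in the same direction, which is 57.9% of the normoxia calls and 29.4% of the hypoxia calls. These contrasts share no library, but both take each gene's spread from the fit to all 12 libraries, so their calls are not independent. Across the 11378 genes their log2 differences had a Pearson r of 0.529, as a description, and 61.6% had the same sign. A further 467 genes were called in the averaged effect alone. The normoxia count was 583 without wild type normoxia library 2 and 617 without double knockout normoxia library 2. The hypoxia count was 1175 without wild type hypoxia library 2 and 1185 without double knockout hypoxia library 1.

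A difference between the genotype effects was called for 22 genes (0.193%; limma), 8 with a more positive effect in hypoxia (0.0703%) and 14 with a more negative one (0.123%). Leaving out 1 library at a time moved this count between 1, as without wild type normoxia library 2 or 3 or double knockout normoxia library 3 or double knockout hypoxia library 3, and 39 without wild type hypoxia library 1. It was 4 without wild type normoxia library 1 and 2 without wild type hypoxia library 2, double knockout normoxia library 1 or 2, or double knockout hypoxia library 1. With the replicate block 1 difference was called, and with each transcript on its own none was (limma, 2168 at an unadjusted p under 0.05). Kcnj2 measured 0.866, 0.851 and 0.837 FPKM in the 3 normoxic wild type libraries and 1.18, 1.33 and 1.54 FPKM in the 3 normoxic double knockout libraries. Hypoxic libraries gave 1.19, 1.03 and 1.03 FPKM without and 3.12, 3.36 and 3.31 FPKM with the knockout, so it was higher at both levels and more so in hypoxia (0.34 and 1.03, limma adjusted p of the difference 0.0347). Its wild type normoxia libraries were under 1 FPKM, so the double knockout libraries helped it reach the minimum for the test.

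Ackr3, a scavenging receptor for CXCL12, was at 1.93 to 1.96 FPKM in wild type normoxia and 2.67, 1.80 and 2.85 FPKM in double knockout normoxia. After hypoxia Ackr3 measured 2.03, 2.21 and 1.97 FPKM in wild type and 0.616, 0.804 and 0.941 FPKM in the double knockout (0.21 and -0.78, limma adjusted p of the difference 0.0354). The ETS factor gene Etv4 was at 16.7 to 17.1 FPKM in wild type normoxia and 13.6 to 14.5 FPKM in the double knockout, and at 18.3 to 18.6 and 19.5 to 20.8 FPKM in hypoxia (-0.25 and 0.13). Both effects of Etv4 passed, while the normoxia effect of Ackr3 did not (limma adjusted p = 0.315). The ERK phosphatase gene Dusp5 fell in hypoxia (-0.40), and its normoxia effect of 0.07 did not pass (limma adjusted p = 0.468).

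**Figure D5:**
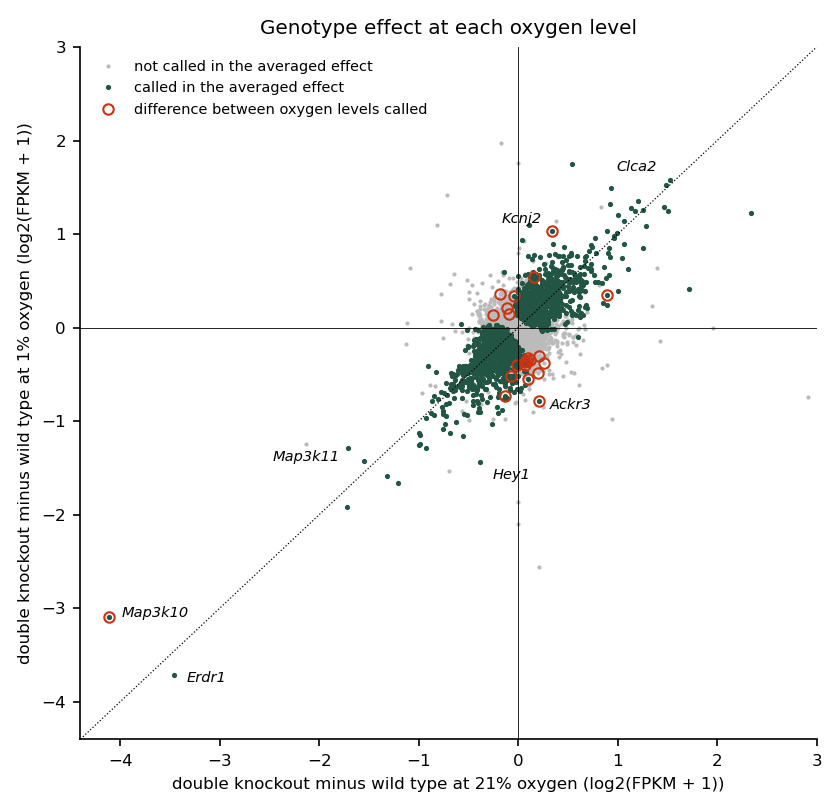
Log2(FPKM + 1) difference between double knockout and wild type in normoxia (horizontal) and in hypoxia (vertical) for each tested gene, with the 2167 genes called in the averaged effect in green, the 22 genes with a called difference between levels circled and the line of equal effects dotted. Clca2 and Erdr1 lie near the line, and Ackr3 and Kcnj2 lie off it.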

How the data were processed

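Libraries came from RNA isolated with RNeasy plus columns and, per the labels' protocols, were built with NEBNext Ultra reagents. TopHat2 is the aligner that the submitters' processing notes name. What the authors deposited are FPKM values for 52655 transcripts. No TopHat2 version, genome build, annotation or quantifier is given in the sources used here. Depth was estimated from the steps of low FPKM values of 10431 single-transcript genes.

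FPKM values were summed per gene and fitted as log2(FPKM + 1) in limma 3.58.1 (R 4.3.3) with 1 coefficient per group, 8 residual degrees of freedom, a variance trend and Benjamini-Hochberg adjustment over the 11378 genes whose mean reached 1 FPKM. The pseudocount of 1 understates changes of low genes. Calls are at an adjusted p under 0.05, also for groups and genes given without a printed p. GENCODE M21 (GRCm38) contains 98.0% of the transcripts and gave positions for 11253 tested genes, and RefSeq gave promoter windows. The fit was tested on simulated data.

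The comparison and the gene lists were chosen with earlier results of these data known. Named were the MLK genes, the 15 largest increases and 15 largest decreases among called genes whose libraries were separated in the same direction at both levels, up to 4 called members of each list by p, and up to 5 differences between oxygen levels in each direction. Some genes that this rule chose, and 1 list, are not reported here. Alternatives were another pseudocount, filters, scalings, an additive model, array weights, blocking by replicate number, a constant prior variance, single transcripts, chromosomes 7 and 19 left out, and each library left out. Replicate numbers did not pair the libraries.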

Additional observations from a re-analysis of the deposited data

Results flagged for a closer look

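Each gene in this paragraph was picked out because the test of the difference between oxygen levels passed (limma adjusted p under 0.05), and the value given is the genotype effect in hypoxia minus that in normoxia on the log2(FPKM + 1) scale. More positive in hypoxia were Map3k10 (1.02), Kcnj2 (0.69), Arhgap20 (0.54), Tmem97 (0.39) and Etv4 (0.38). More negative in hypoxia were Ackr3 (-0.99), Trmt5 (-0.69), Zfp760 (-0.66), Clec2d (-0.63), Lrrn4cl (-0.60) and Dusp5 (-0.47).

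Trmt5, a tRNA methyltransferase, was at 5.76 to 6.95 FPKM in wild type normoxia and 7.11 to 7.73 FPKM in double knockout normoxia, and at 4.15 to 4.81 and 2.90 to 3.09 FPKM in hypoxia. The lectin gene Clec2d was at 41.2 to 44.4 and 46.8 to 57.8 FPKM in normoxia and 33.3 to 36.5 and 24.6 to 28.0 FPKM in hypoxia. Both fell in hypoxia, and in normoxia Clec2d rose while the effect of 0.20 for Trmt5 did not pass (limma adjusted p = 0.121). Lrrn4cl, which lies 3.15 Mb from Map3k11, fell in hypoxia and its normoxia effect of -0.13 did not pass (limma adjusted p = 0.266). It was at 29.6 to 32.0 FPKM in wild type normoxia and 28.0 to 28.6 FPKM in double knockout normoxia. In hypoxia it was at 26.4 to 29.2 FPKM in wild type and 14.8 to 18.1 FPKM in the double knockout. The number of genes so called fell to between 1 and 4 when any of 9 of the 12 libraries was left out.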

How the results depend on the processing

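The count of genes called in the averaged effect was 1667 to 2535 over the alternatives, with 1716 to 2139 when 1 library was left out, all within 1.5 times of 2167. The normoxia count of 929 became 583 with each transcript on its own and 616 from only the 6 libraries of that level, and 583 to 935 with 1 library left out. The hypoxia count was 1175 to 1873 with 1 library left out. The count of 22 differences between levels became 12 under quantile normalization, 6 without a variance trend, 153 with array weights and 0 with each transcript on its own (limma; 2168 at an unadjusted p under 0.05), and 1 to 39 with 1 library left out. Same-numbered libraries deviated together in 1 of 18 pairs (r over 0.1; range -0.0841 to 0.167), so the numbers were not used as pairs; with the replicate block 2107 genes were called in the averaged effect, 899 in normoxia, 1783 in hypoxia and 1 difference. Of 172 named genes called, 159 were called in every alternative that tested them; those lost in at least 1 were Ackr3, Atp5b, Atp5g3, Col3a1, Dusp5, Hopx, Itga2b, Pole, Rpl24, Tk1, Tmem97, Uqcrc2 and Zfp760. At a mean of at least 5 FPKM the calls fell from 11 to 7 for BMP and TGF-beta, metalloproteinase and imprinted genes, from 9 to 5 for vasoactive genes, from 5 to 3 for Notch genes and from 5 to 2 for smooth muscle genes. S phase calls were 3 in the additive model or with chromosomes 7 and 19 left out and 9 with array weights, and JNK, p38 and ERK calls fell from 10 to 6 in the additive model or with no filter. Xist, not called at -0.03, was at 0.05 with the trend on GC content and length removed and between -0.08 and 0.00 with 1 library left out, the latter without double knockout hypoxia library 3; the cause was not tested. Depth was estimated from FPKM steps, so no counting error is given for low genes.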
